A study of Mus musculus with 6 samples.

Results

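The 9 genes described here encode proteins of the red cell surface, most of which carry human blood group antigens: Slc4a1, Rhd, Rhag, Cd47, Icam4, Kel, Gypc, Ermap and Aqp1. They were taken by name: every non-control probe of the array whose design names 1 of these genes was used, which gave 13 of the 55681 probes. Cd47 and Ermap have 3 probes each and every other gene has 1. Of the 13 probes 12 were well above background on 3 or more arrays and could be tested, and these stand for 8 of the 22132 genes tested. On none of the arrays was Aqp1 well above background, and it was not tested.

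The cells were of the line G1E-ER-GATA-1, and their RNA was measured. This mouse erythroid line has no GATA-1 of its own and makes a fusion of GATA-1 with the part of the oestrogen receptor that binds hormone, and adding oestradiol activates the fusion. The compared groups were cells given siRNA against Mi2β (3 arrays), the ATPase of the NuRD chromatin remodelling complex encoded by Chd4, and cells given non-targeting control siRNA (3 arrays). Both groups were nucleofected at 0 h and 24 h, received ß-estradiol at 24 h and were harvested at 48 h, so the control cells too had active GATA-1 for 24 h, and no array of cells without ß-estradiol was used. All cells come from 1 line, and nothing in the labels says that the samples of a group were separate cultures, so p-values reflect only how these samples vary, and that variation may be technical.

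The red cell membrane holds its surface proteins in assemblies that are tied to a spectrin skeleton. Band 3, the product of Slc4a1, exchanges chloride for bicarbonate and binds the skeleton through ankyrin, and the Rh polypeptides, their partner RhAG, CD47 and the LW glycoprotein ICAM-4 are found around it in human red cells. Glycophorin C is held by another skeletal protein, the product of Epb41, and Kell is linked by a disulphide bond to the XK protein. Many genes of this group are switched on late in erythroid maturation, and several are known targets of GATA-1.

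Expression on these arrays is read through probes of 60 bases, and the stretches of transcript that carried the measurements for Icam4, the member that rose, for Kel and Cd47, which fell, and for an Ermap probe that did not pass the threshold are shown first. They are printed from 5′ to 3′ as the array design gives them. The Icam4 probe lies at chr9:20834524-20834583 on the plus strand, the Kel probe at chr6:41636474-41636533 on the minus strand, the Cd47 probe A_55_P2182483 at chr16:49896476-49896535 on the plus strand and the Ermap probe A_55_P2153382 at chr4:118859754-118859813 on the minus strand, in mm9. No annotation of that build was used, so the exon under a probe is not given.
Icam4 probe: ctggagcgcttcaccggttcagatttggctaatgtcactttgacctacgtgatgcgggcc
Kel probe: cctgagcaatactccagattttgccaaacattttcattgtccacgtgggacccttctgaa
Cd47 probe: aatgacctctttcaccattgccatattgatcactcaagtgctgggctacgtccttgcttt
Ermap probe: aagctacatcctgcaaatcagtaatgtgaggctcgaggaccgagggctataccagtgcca

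Because the cells differ from their parent line in an active GATA-1, the sequence before the start of each gene is shown as well, for the members whose RNA could be tested. Each run covers 120 bases before the transcript's start and its first 20 bases, on the gene's own strand, from the RefSeq promoter table of GRCm38.p6, which holds 7 of the 9 genes (not Slc4a1 and Gypc). Capitals mark 2 kinds of word found on either strand: GATA words (GATA with A or T before it and A or G after it) and the CACCC-type word CCNCNCCC. No overlap between the 2 kinds of word was found in these windows. They lie at chr4:134864416-134864555 (plus strand) for Rhd, chr6:41704306-41704445 (minus) for Kel, chr9:21029312-21029451 (plus) for Icam4, chr17:40811029-40811168 (plus) for Rhag, chr4:119189976-119190115 (minus) for Ermap and chr16:49855534-49855673 (plus) for Cd47.
Rhd promoter: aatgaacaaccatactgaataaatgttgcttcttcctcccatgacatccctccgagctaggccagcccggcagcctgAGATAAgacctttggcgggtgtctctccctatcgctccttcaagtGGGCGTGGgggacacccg
Kel promoter: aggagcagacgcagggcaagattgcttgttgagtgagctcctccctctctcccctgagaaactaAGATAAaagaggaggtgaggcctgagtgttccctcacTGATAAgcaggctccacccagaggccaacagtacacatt
Icam4 promoter: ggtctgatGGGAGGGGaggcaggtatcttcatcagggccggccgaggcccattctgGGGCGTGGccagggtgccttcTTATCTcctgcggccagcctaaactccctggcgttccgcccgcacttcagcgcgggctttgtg
Rhag promoter: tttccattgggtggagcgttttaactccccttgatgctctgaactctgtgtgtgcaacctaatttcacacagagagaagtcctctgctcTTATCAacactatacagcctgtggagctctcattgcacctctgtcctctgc
Ermap promoter: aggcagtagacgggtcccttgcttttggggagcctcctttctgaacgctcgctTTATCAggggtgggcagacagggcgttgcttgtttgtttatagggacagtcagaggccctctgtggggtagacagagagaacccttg
Cd47 promoter: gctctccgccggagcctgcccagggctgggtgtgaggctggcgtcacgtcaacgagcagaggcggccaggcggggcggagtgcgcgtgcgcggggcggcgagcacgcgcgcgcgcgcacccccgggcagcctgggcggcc

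Counting the first base of the transcript as 1, GATA words began at -43 in Rhd, at -56 and -19 in Kel, at -43 in Icam4, at -31 in Rhag and at -67 in Ermap. In the full 300 bases of the table (250 before the start and 50 from it), 5 of the 7 genes held a GATA word and Cd47 and Aqp1 did not, while 29.8% of the 32851 promoters of that table held one. Words of the form CCNCNCCC stood in the promoters of Icam4, Rhd and Aqp1 and in 49.5% of all promoters, and 10.2% of all promoters held both kinds. This form is not the plain word CACCC, which was not searched for and stands unmarked, on either strand, in each window printed above. A window without capitals of this kind therefore does not lack the letters CACCC. Genes with a GATA word therefore include 2 that fell (Rhd and Kel), 1 that rose (Icam4) and 2 that did not pass the threshold (Rhag and Ermap). A matching word is a description of the letters and not a binding site, and these arrays carry no measurement of binding.

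The knockdown itself was present on each array. Chd4 stood at 4.62, 4.60 and 4.54 on the Mi2β siRNA arrays and at 5.93, 6.00 and 5.75 on the control arrays. These values are log2 of the signal over the 75th percentile of its array. Levels below are on this scale, apart from signals in units and the marker sums, which are multiples of the 75th percentile signal. Chd4 was 2.48-fold lower (log2 change -1.31, SE 0.10, limma adjusted p = 0.00161). The share of probes well above background was 48.9% to 74.0% on the knockdown arrays and 53.4% to 56.8% on the control arrays. All 10 erythroid marker genes were well above background on all 6 arrays. Their summed signal was 2200 to 2450 times the 75th percentile signal in knockdown cells and 1940 to 2050 times in control cells. The erythroid genes did not move together: Epb42 (1.85), Alas2 (1.06) and Hbb-bt (0.81) rose and Ahsp (-1.11) fell. The other 6 did not pass, and the median change of the 10 was 0.10. The sums of other marker lists differed between the groups too. Megakaryocyte genes summed to 22.2 to 27.6 in knockdown cells against 41.5 to 47.8 in control cells (9 of 10 detected, Ppbp not). Mast cell genes summed to 11.3 to 12.7 against 6.9 to 8.6 (7 of 10, not Mcpt8, Fcer1a or Ms4a2). Lymphoid genes summed to 17.2 to 17.9 against 12.5 to 14.3 (5 of 6, not Il7r). Such sums add unlogged signals, so a few bright genes weigh most and a sum need not show how its list moved. On the log2 scale Pf4, the brightest megakaryocyte gene tested, averaged 3.25 in knockdown and 4.87 in control cells. The lymphoid gene Ptprcap averaged 3.13 and 1.91, and the brightest erythroid genes were Hba-a1 (9.84 and 9.75) and Hbb-bt (9.72 and 8.91). Single genes went their own way in these lists: in the megakaryocyte list Gp9 (-2.18), Pf4 (-1.62) and Gp1ba (-0.63) fell while Treml1 rose (1.58) and Itga2b had 1.51 (adjusted p = 0.0508 by limma), and of the 4 lymphoid genes tested Ptprcap rose (1.22) and Cd79a (0.21), Cd4 (-0.19) and Cd3e (-0.05) did not pass. In the mast cell list Mcpt4 (2.70) and Hdc (2.05) rose. Tpsab1 passed too, but no control array showed it well above background. Tpsab1 met the filter only through the group where it is high, and its call rests on control values at background. Its fold was at least 2.49 with these values. Cma1 (0.66), Cpa3 (0.61), Kit (0.40) and Tpsb2 (0.23) did not pass. Myeloid genes, of which Mpo, Lyz2, Cebpa, Ly6g and S100a8 were not detected on any array, summed to 21.9 to 23.5 in knockdown cells and 18.4 to 24.0 in control cells, and fibroblast genes to 0.213 to 0.406 and 0.226 to 0.291. The part of these shifts in the results below was not tested, and in bulk RNA fewer cells of a kind and less RNA per cell cannot be told apart.

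Most of the blood group genes were lower after Mi2β knockdown. Of the 8 genes tested, Slc4a1, Rhd, Gypc, Kel and Cd47 fell, Icam4 rose, and Rhag and Ermap did not pass the threshold, which was an adjusted p of 0.05 by limma over all genes. Across the array 4.56% of genes fell and 4.99% rose. In 6 of the 8 genes every knockdown array lay below every control array, as in 18.4% of all genes, and in 1 gene (Icam4) every knockdown array lay above, as in 12.7% of all genes. The median change of the 8 genes was -0.57 on the log2 scale, and that of all genes was -0.03. The plot of each gene's values by array shows the groups apart in every panel but that of Ermap.

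**Figure D1:**
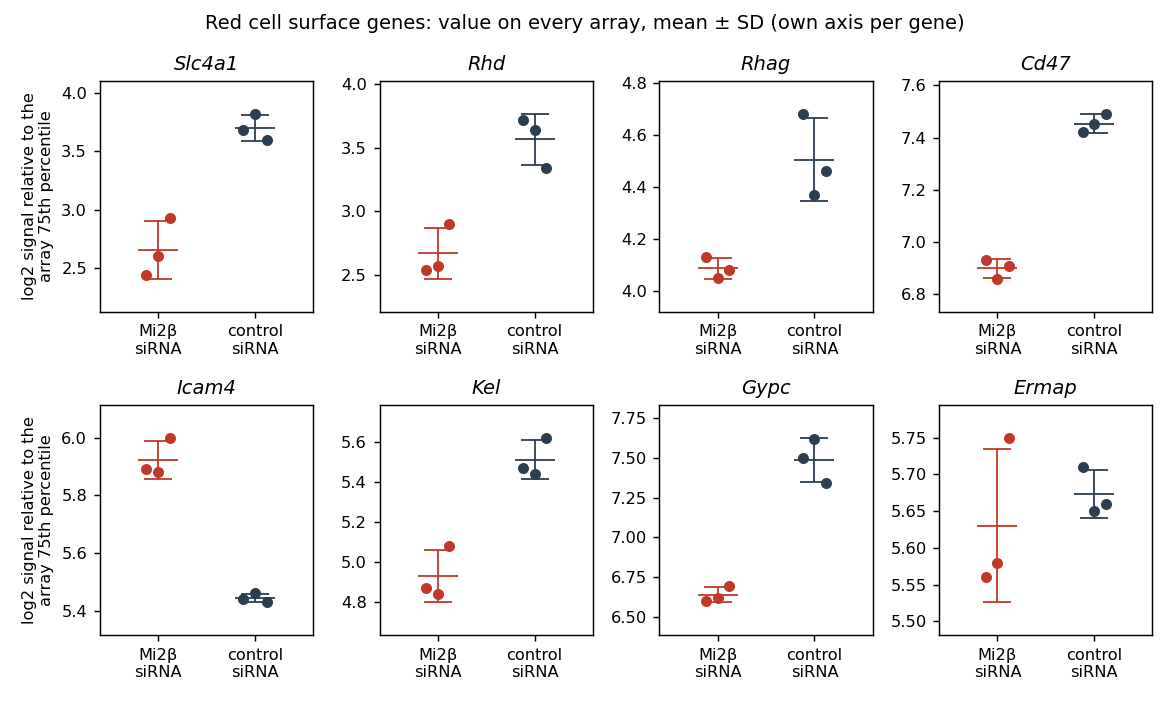
Level of each of the 8 tested genes on each array, as log2 of the signal over the array's 75th percentile (vertical axis, its own range per gene), for Mi2β siRNA (red, left) and control siRNA (dark blue, right). Points are arrays, long bars the mean and short bars 1 SD (n = 3 per group); Slc4a1 lies at 2.44 to 2.93 on the knockdown arrays and 3.60 to 3.82 on the control arrays, while the Ermap values overlap.

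Slc4a1, the band 3 anion exchanger that carries the Diego antigens in humans, had the lowest change of the 8. Its processed signal was 2400, 2410 and 3080 units in knockdown cells and 4730, 5060 and 4760 units in control cells. On the log2 scale it stood at 2.44, 2.61 and 2.93 in knockdown cells and at 3.68, 3.82 and 3.60 in control cells. The 3 control values lie close together, the third knockdown value is nearest to them, and the groups do not overlap. Slc4a1 averaged 2.66 ± 0.25 in knockdown cells and 3.70 ± 0.11 in control cells (SD, n = 3 each) and was 2.05-fold lower (log2 change -1.04, SE 0.15, 95% interval -1.41 to -0.66, limma adjusted p = 0.0121). A lower change was seen in 1.04% of all genes tested. The adjusted p by limma was 0.0519 without knockdown replicate 1, 0.0532 without control replicate 1 and 0.0533 without control replicate 2. Its probe lies at chr11:102210256-102210315 on the minus strand (mm9).

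Rhd encodes the Rh polypeptide of the mouse, the relative of the human D and CE proteins. It stood at 2.54, 2.57 and 2.90 in knockdown cells and at 3.72, 3.64 and 3.34 in control cells. The third array of each group is the closest to the other group, and the groups do not overlap. Rhd averaged 2.67 ± 0.20 in knockdown cells and 3.57 ± 0.20 in control cells (SD, n = 3 each), which is 1.87-fold lower (log2 change -0.90, SE 0.16, 95% interval -1.28 to -0.52, limma adjusted p = 0.0215). That call ended without knockdown replicate 1 (adjusted p by limma 0.0993) or 2 (0.0737) and without control replicate 1 (0.0830) or 2 (0.0822). The probe lies at chr4:134452018-134452077 on the plus strand (mm9).

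Rhag, the glycoprotein that the Rh polypeptide needs to reach the cell surface and that conducts ammonia in red cells, stood at 4.13, 4.05 and 4.08 in knockdown cells. In control cells it stood at 4.68, 4.37 and 4.46. The groups do not overlap, and the control values are more spread than those of the knockdown. The log2 change was -0.42 (SE 0.11, 95% interval -0.69 to -0.14), with a limma adjusted p = 0.0765 that did not pass the threshold. It passed with normexp background correction, with the filter of all 6 arrays, with an intensity trend and with array weights, and the adjusted p spanned 0.0225 to 0.522 over 18 alternatives. Whether Rhag changed less than Rhd was not tested. Its probe lies at chr17:40976929-40976988 on the plus strand (mm9).

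Cd47, which signals through SIRPα on macrophages to hold back phagocytosis, was measured by 3 probes. Its brightest probe, A_55_P2182483, stood at 6.93, 6.86 and 6.91 in knockdown cells and at 7.42, 7.45 and 7.49 in control cells. The spread within each group is small beside the distance between the groups. By this probe Cd47 was 1.47-fold lower, with 6.90 ± 0.03 in knockdown cells and 7.45 ± 0.04 in control cells (SD, n = 3 each), a log2 change of -0.55 (SE 0.08, 95% interval -0.76 to -0.35, limma adjusted p = 0.0135). That call ended without knockdown replicate 1 (adjusted p by limma 0.0762) or 2 (0.0552) and without control replicate 1 (0.0530).

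The other Cd47 probes gave changes of the same sign. A_51_P221014, whose match spans chr16:49906910-49911025 with a gap (plus strand, mm9), stood at 6.70, 6.66 and 6.73 in knockdown cells and at 7.18, 6.90 and 7.34 in control cells (log2 change -0.44, SE 0.14, limma adjusted p over all probes 0.125). The dim probe A_55_P2046822 at chr16:49913814-49913873 had signals of 77.0, 70.9 and 80.3 units in knockdown cells and 112, 74.9 and 79.8 units in control cells, with a change of -0.35 (SE 0.18, adjusted p = 0.323 by limma). On all 3 probes the scaled knockdown values lay below the scaled control values, as in 18.4% of all genes. On the dim probe the nearest scaled values were -2.33 (knockdown) and -2.30 (control), and its unscaled signals overlapped. Fitted probe by probe, 3.88% of all probes fell, and 5 of the 12 member probes fell and 1 rose. For rises only the share at gene level was computed, 4.99% of all genes. Of the Cd47 probes only A_55_P2182483 passed (adjusted p = 0.0179 by limma), and with the mean over the probes the gene did not pass. A test of whether the probes of a gene change differently, chosen after seeing the data, gave no call for Cd47 (limma diffSplice P 0.598, adjusted 0.999 over 6210 genes).

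Icam4, the LW glycoprotein, an adhesion molecule that binds integrins and is bound to the Rh complex in humans, was the member that rose. Its processed signal was 26400, 23200 and 25800 units in knockdown cells and 16100, 15800 and 16900 units in control cells. Scaled, it stood at 5.89, 5.88 and 6.00 in knockdown cells and at 5.44, 5.46 and 5.43 in control cells. Every knockdown value lies above every control value, with a narrow spread in both groups. Icam4 averaged 5.92 ± 0.06 in knockdown cells and 5.44 ± 0.02 in control cells (SD, n = 3 each) and was 1.39-fold higher (log2 change 0.48, SE 0.09, 95% interval 0.27 to 0.69, limma adjusted p = 0.0239). Of all genes tested 87.7% had a lower change. The call ended with any array left out, with adjusted p from 0.0613 to 0.109 by limma, and with array median scaling the change was 0.25 (adjusted p = 0.785), where the median of all genes was -0.27.

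**Figure D2:**
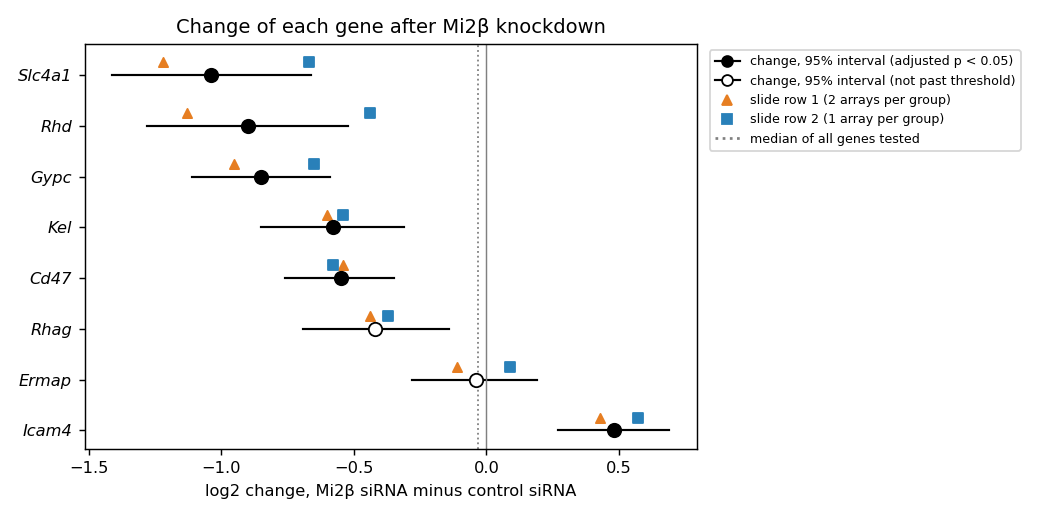
Log2 change of each tested gene, Mi2β siRNA minus control siRNA (horizontal axis), with its 95% interval from limma (circles, filled where the adjusted p was under 0.05), and the change within slide row 1 (triangles, 2 arrays per group) and row 2 (squares, 1 array per group). Slc4a1 at -1.04 and Icam4 at 0.48 are the ends of the range, and the signs in both rows are the same except for Ermap.

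Kel encodes the Kell glycoprotein, a zinc endopeptidase that cuts an endothelin precursor. Kel stood at 4.87, 4.84 and 5.08 in knockdown cells and at 5.47, 5.44 and 5.62 in control cells. In each group the third array is the highest, and the groups do not overlap. It averaged 4.93 ± 0.13 in knockdown cells and 5.51 ± 0.10 in control cells (SD, n = 3 each), 1.50-fold lower (log2 change -0.58, SE 0.11, 95% interval -0.85 to -0.31, limma adjusted p = 0.0293). The Kel call held without knockdown replicate 3 (adjusted p by limma 0.0402). It ended without knockdown replicate 1 (0.133) or 2 (0.0949) and without control replicate 1 (0.0937), 2 (0.0717) or 3 (0.0737).

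Gypc encodes glycophorin C, the carrier of the Gerbich antigens, which ties the membrane to the skeleton. Its processed signal was 42900, 38900 and 41800 units in knockdown cells and 66900, 70800 and 63600 units in control cells. The log2 levels were 6.60, 6.62 and 6.69 in knockdown cells and 7.50, 7.62 and 7.34 in control cells. The knockdown values are nearly alike, and the groups are far apart relative to the spread in either. Gypc averaged 6.64 ± 0.05 in knockdown cells and 7.49 ± 0.14 in control cells (SD, n = 3 each), 1.80-fold lower (log2 change -0.85, SE 0.11, 95% interval -1.11 to -0.59, limma adjusted p = 0.00729). The call held with each array left out in turn (adjusted p from 0.0152 to 0.0496 by limma) and ended with array median scaling (-1.08, adjusted p = 0.0843). Its probe lies at chr18:32688061-32688120 on the minus strand (mm9).

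Ermap, a butyrophilin-like surface protein of erythroid cells that carries the Scianna antigens, was measured by 3 probes, of which the brightest (A_51_P391716, chr4:118848540-118848599, minus strand, mm9) stands for the gene. It stood at 5.56, 5.58 and 5.75 in knockdown cells and at 5.71, 5.65 and 5.66 in control cells. The highest and the lowest of the 6 values both came from knockdown arrays. The log2 change was -0.04 (SE 0.10, limma adjusted p = 0.834), and its 95% interval of -0.28 to 0.19 does not reach the change of any member that fell. A_55_P2153381 (chr4:118849093-118849152) gave 2.27, 2.10 and 2.33 in knockdown cells and 2.57, 2.30 and 2.30 in control cells, a change of -0.16 (SE 0.12, limma adjusted p = 0.526). A_55_P2153382 gave 4.67, 4.61 and 4.52 in knockdown cells and 4.87, 4.76 and 4.64 in control cells, also a change of -0.16 (SE 0.11, limma adjusted p = 0.454). Groups overlapped on each of the 3 probes, and the test of unequal change between probes gave no call (limma diffSplice P 0.634, adjusted 0.999). The plot of single probes shows these values beside those of Cd47.

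**Figure D3:**
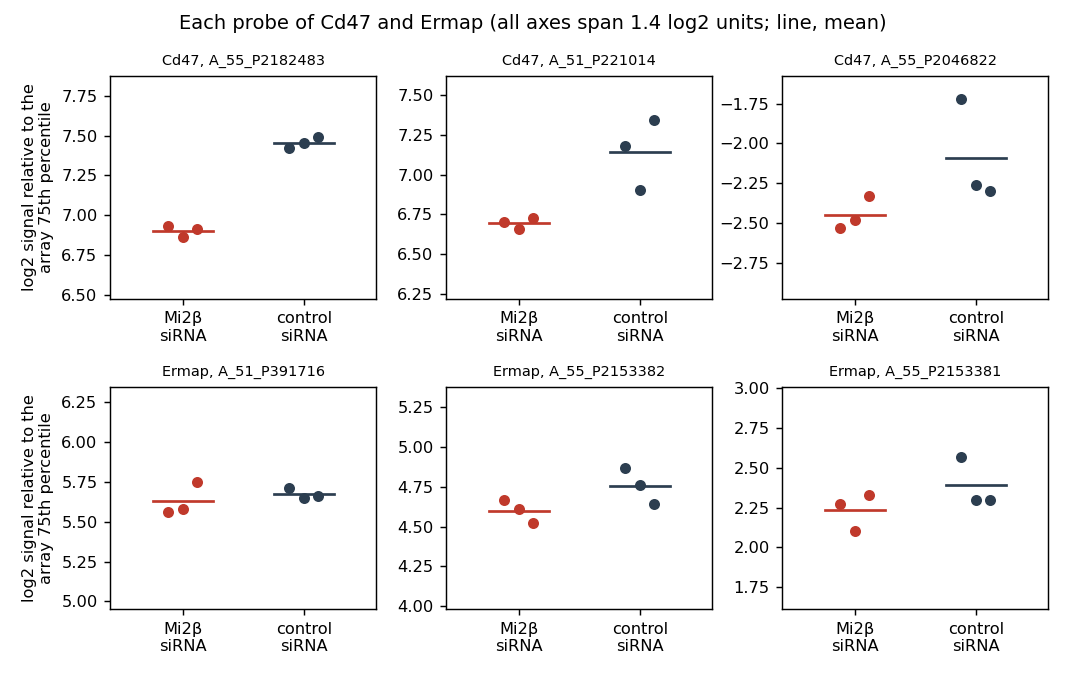
Level on each array for the 3 probes of Cd47 (top) and the 3 of Ermap (bottom), Mi2β siRNA in red and left, control siRNA in dark blue and right, as log2 of the signal over the array's 75th percentile. Every axis spans the same number of log2 units but has its own origin, and lines are means (n = 3 per group). The groups are apart on each Cd47 probe, on A_55_P2046822 only narrowly, and overlap on each Ermap probe.

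Aqp1, the water channel that carries the Colton antigens, had signals of 4.83, 5.06 and 4.64 units in knockdown cells and 3.12, 4.05 and 3.31 units in control cells. None of these is well above background, where the negative control spots averaged 29.2 to 34.2 units before correction in knockdown cells and 27.8 to 28.7 units in control cells, so no level or fold is given. The probe lies at chr6:55298480-55298539 on the plus strand (mm9).

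All arrays came from 1 slide, whose row 1 held 2 arrays of each group and row 2 held 1 of each. The falls of Slc4a1 (-1.22 in row 1 and -0.67 in row 2), Rhd (-1.13 and -0.44) and Gypc (-0.95 and -0.65) were larger in row 1, with no test of the difference. Kel (-0.60 and -0.54), Cd47 (-0.54 and -0.58), Rhag (-0.44 and -0.37) and Icam4 (0.43 and 0.57) gave closer values, and Ermap gave -0.11 and 0.09. When slide row was a block in the fit, the 5 falls and the rise kept their calls, with adjusted p by limma of 0.0179 for Gypc, 0.0244 for Slc4a1, 0.0269 for Kel, 0.0316 for Cd47, 0.0438 for Rhd and 0.0472 for Icam4. Within row 1 alone Slc4a1 (adjusted p = 0.038 by limma), Rhd (0.0344) and Gypc (0.0476) passed, and Kel (0.0872), Cd47 (0.103) and Icam4 (0.139) did not.

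The scaling and the filter decided some calls. With each array scaled by its median in place of its 75th percentile, Slc4a1 passed (-1.27, adjusted p = 0.0231 by limma), while Rhd (-1.13, adjusted p = 0.0622), Kel (-0.81, adjusted p = 0.323) and Cd47 (-0.78, adjusted p = 0.356) did not, as was the case for Gypc and Icam4. With no detection filter, which raised the number of genes tested to 34938, Slc4a1 (adjusted p = 0.044 by limma) and Gypc (0.0336) passed, and Rhd (0.0716), Cd47 (0.0704), Kel (0.105) and Icam4 (0.105) did not. The map of changes by setting shows that the sign of each of these 6 genes was the same throughout.

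**Figure D4:**
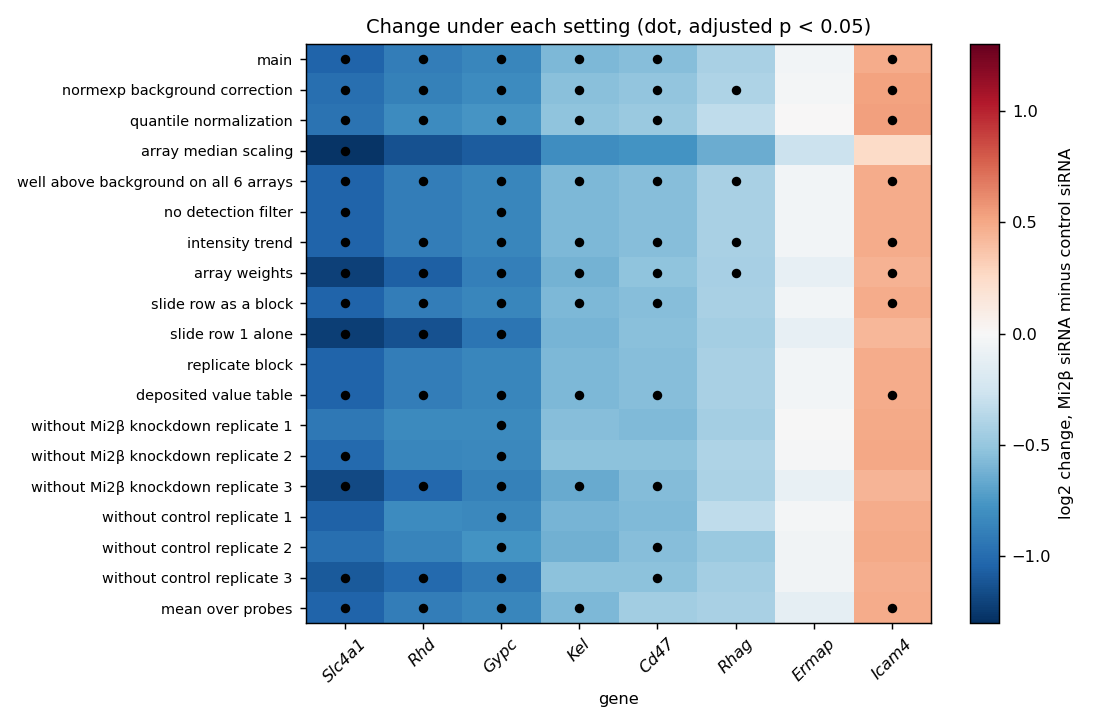
Log2 change (colour, Mi2β siRNA minus control siRNA) of each tested gene (columns) in the fit as reported, labelled main, and under 18 other ways of processing or leaving out arrays (rows), with a dot where the limma adjusted p was under 0.05. Slc4a1, Rhd, Gypc, Kel, Cd47 and Rhag are blue in every row and Icam4 is red in every row, while the number of dots differs between rows.

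Genes of the membrane skeleton and of proteins listed with it changed in both directions. Of 20 measured genes in this list, 7 fell and 1 rose by limma, with a median change of -0.27. Besides spectrin, ankyrin, adducin and other skeleton genes, the list holds Ppp1r9b, Car2, Aldoa and Gapdh, which do not encode skeleton anchors. Its counts and median are therefore not those of anchors alone. Epb42, whose product binds band 3, was the gene that rose: it stood at -2.23, -2.54 and -2.04 in knockdown cells and at -4.22, -4.05 and -4.08 in control cells (log2 change 1.85, SE 0.15, limma adjusted p = 0.00176), or 0.69 with normexp background correction. Epb42 passed under all 18 alternatives. Its control signal was dim (mean -4.12), though well above background on the 3 control arrays, so the size of the rise depends on the background correction. Ank1, the ankyrin that binds band 3, did not pass (-0.49, SE 0.11, adjusted p = 0.0532 by limma).

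Falls in the same list included those of the adducin genes Add3 (-0.89, SE 0.08, limma adjusted p = 0.00266) and Add1 (-0.53, adjusted p = 0.0283). Epb41, which encodes the partner of glycophorin C (-0.58, adjusted p = 0.0326), and the tropomyosin gene Tpm1 (-0.53, adjusted p = 0.0172) fell too. So did Ppp1r9b (-0.61, adjusted p = 0.0338) and Car2 (-0.51, adjusted p = 0.0313), a carbonic anhydrase that works with band 3. Of all these falls, that of Add3 lost its call under 1 of 18 alternatives (array median scaling). Each of the others lost it under 8 to 10, which for each include the loss of control replicate 1 or 2 or of knockdown replicate 1 or 2. The highest adjusted p by limma with an array left out was 0.132 for Add1, 0.125 for Ppp1r9b, 0.140 for Epb41, 0.0911 for Tpm1 and 0.129 for Car2.

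Carriers of other blood groups were mostly not changed past the threshold, and more rose than fell. Of 23 measured genes, 5 rose and 1 fell by limma, with a median change of -0.04. Aqp3, the glycerol channel of the GIL group, stood at 2.21, 2.52 and 2.49 in knockdown cells and at -0.09, -0.25 and 0.01 in control cells, 5.70-fold higher (log2 change 2.51, SE 0.13, limma adjusted p = 0.000469), and passed under all 18 alternatives. The nucleoside transporter gene Slc29a1 (1.00, SE 0.11, limma adjusted p = 0.00538) rose too, a call that ended with array median scaling (0.77, adjusted p = 0.373). So did the adhesion receptor gene Cd44 (0.93, SE 0.18, adjusted p = 0.0317), the complement regulator gene Cd55 (0.57, adjusted p = 0.0318) and the prion protein gene Prnp (0.49, adjusted p = 0.0461), while the transporter gene Abcc4 fell (-0.81, SE 0.14, adjusted p = 0.0229). With arrays left out in turn, the highest adjusted p by limma was 0.130 for Cd44, 0.111 for Cd55, 0.142 for Prnp and 0.0721 for Abcc4, and Cd55 lost its call with any array left out. The Cd44 call ended without any knockdown array or control replicate 2, that of Prnp without any knockdown array or control replicate 1 or 2, and that of Abcc4 without knockdown replicate 2 or 3 or any control array.

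Xk, the partner of Kell, had a change of -0.01 (SE 0.13, adjusted p = 0.978 by limma) beside the -0.58 of Kel. Slc2a1, Bsg, Bcam and Cd59a did not pass either (-0.28, -0.10, -0.31 and 0.87). Of the 11 measured ICAM relatives and integrin partners of Icam4, 1 rose and 3 fell: Icam1 rose by 1.52 (SE 0.20, limma adjusted p = 0.0085; 0.69 with normexp), and the integrin genes Itgb3 (-1.72, SE 0.17, adjusted p = 0.0034), Itga4 (-0.92, SE 0.11, adjusted p = 0.0055) and Itgb1 (-0.47, SE 0.10, adjusted p = 0.0355) fell. Itgb1 lost its call with any array left out (adjusted p by limma 0.0700 to 0.154), and Itgb3 passed under all 18 alternatives. Itgb3 was also the 1 gene that fell among 3 measured partners of Cd47, and Sirpa, the gene of its receptor, did not pass the filter on background.

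Among the 7 measured relatives of Aqp1, Aqp8 rose, with 3.47, 3.64 and 3.93 in knockdown cells and 1.72, 1.96 and 1.83 in control cells (log2 change 1.84, SE 0.15, limma adjusted p = 0.00166), and Aqp9 fell by 1.11 (SE 0.21, limma adjusted p = 0.0265). Knockdown arrays showed Aqp9 well above background in 2 of 3 cases, its change was -0.40 with normexp, and it lost its call with any control array left out (highest adjusted p 0.0968 by limma). Of the 6 measured relatives of Slc4a1, Slc4a7 (0.80, SE 0.15, limma adjusted p = 0.0248) and Slc4a5 (1.11, SE 0.25, adjusted p just under the threshold; 0.40 with normexp) rose and 0 fell (0 at an unadjusted p under 0.05), with a highest adjusted p of 0.114 and 0.173 by limma with an array left out. The Slc4a7 call ended without any knockdown array or control replicate 1 or 3, and that of Slc4a5 without knockdown replicate 1 or 2 or any control array. Of 4 measured genes of the Kell peptidase family and the endothelins, Ecel1 was the 1 past the threshold (limma adjusted p = 0.00263). It was well above background on 3 knockdown arrays and on 0 control arrays, so it met the filter only through the group where it is high, and its call rests on control values at background. Its fold was at least 11.9 with these values, while the fitted log2 change was 1.73 with normexp, below that bound. Piezo1, the stretch-activated channel, was the 1 gene that rose of 15 measured channels and pumps (0.40, SE 0.09, adjusted p = 0.0461 by limma), a call that ended with any array left out. Rhcg, the only measured relative of Rhag (0.36, adjusted p = 0.238), the 5 measured butyrophilin relatives of Ermap and 3 measured blood group glycosyltransferases gave 0 calls by limma (0 at an unadjusted p under 0.05). Among all these related genes, slide row as a block ended the calls of Add1, Epb41, Car2, Prnp, Itgb1, Piezo1 and Slc4a5.

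**Figure D5:**
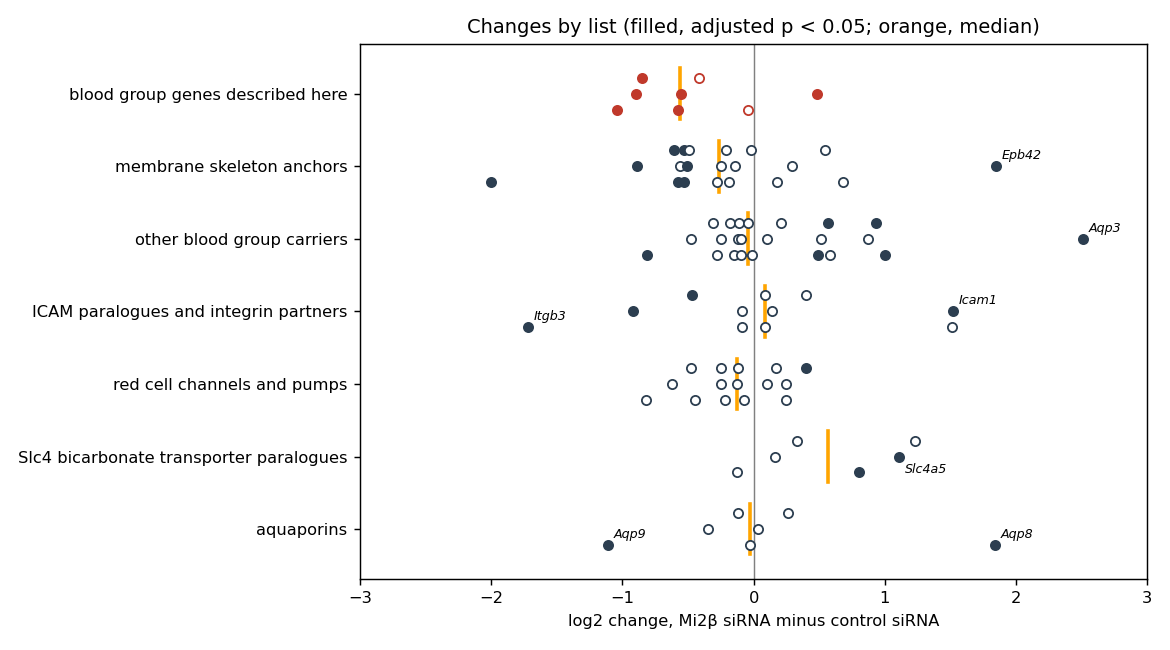
Log2 change, Mi2β siRNA minus control siRNA (horizontal axis), of the 8 tested blood group genes (red, top row) and of the genes of 6 of the 11 related lists (dark blue), filled where the limma adjusted p was under 0.05, with the list's median in orange and vertical offsets only to part the points. The blood group genes lie between -1.04 and 0.48, and Itgb3, Epb42, Aqp3, Aqp8 and Icam1 are among the genes that lie farther from 0.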

How the data were processed

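RNA of 6 samples was hybridised to 1-colour Agilent arrays, 1 sample each, from 0.1 µg labelled with Cy3. Per the file headers, the authors extracted spot intensity values with Agilent Feature Extraction 10.7.3.1, which subtracted background. No scaling between arrays was applied in the deposited files. The authors' deposited table of values repeats these intensities, and its columns have medians of 25.90, 36.93 and 17.83 in knockdown samples and 21.23, 16.95 and 20.92 in control samples, so it is linear and not centred. The submitters' processing notes also name limma. Here the processed signal was put on the log2 scale, centred on its array's 75th percentile and fitted with limma 3.58.1 in R 4.3.3 (lmFit, eBayes, 2 groups, no covariate, two-sided, Benjamini-Hochberg over 22132 genes). Kept probes were well above background on 3 or more of the 6 arrays, and the probe with the highest mean stands for its gene. Folds are 2 raised to the size of the log2 change. "At least" folds set the detected group's mean against a floor for the other group, on each array its measured value or the dimmest well-above-background signal, whichever is greater. Names were updated through RefSeq accessions (2017 names). The fit was tested on simulated data.

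The members and the 11 related lists were chosen with earlier results of these data known. The text names all members, Chd4, the genes past the threshold in each list and a set of further red cell membrane genes. Some genes under this rule are left unreported, though each count covers them. Replicate numbers run from 1 to 3 in both groups, and the labels do not say whether same-numbered samples were paired. The main fit did not pair them. Deviations from the group means correlated at 0.21, -0.32 and 0.13 for same-numbered samples and at -0.41 to 0.32 for the others. These values cannot show whether samples were paired, because the 3 deviations of a group cancel out. The number of arrays limits the precision.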

Additional observations from a re-analysis of the deposited data

How the results depend on the processing

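Counts of calls and the changes of the members, Chd4 and most of the related genes named were recomputed under 18 alternatives of background correction, scaling, filter, probe choice, variance model, slide row, replicate number and arrays used (17 for Aqp9, Bcam, Cd59a and Ecel1, which the filter of all 6 arrays removes; probes have no mean over probes). Marker sums, list medians and the test between probes were not. No call of a member changed direction. As reported, 1 member rose, 5 fell, 6 member probes passed and 24 genes of the related lists passed. With array median scaling these counts were 0, 1, 1 and 9, with no detection filter 0, 2, 0 and 10, and within slide row 1 alone 0, 3, 2 and 10. With arrays left out in turn, 0 members rose, 1 to 5 fell, 0 to 4 probes passed and 11 to 19 list genes passed; 1 member (Gypc) fell without knockdown replicate 1 or control replicate 1. Whether samples with the same replicate number were paired is not stated in the labels. With the replicate block 0 members rose, 0 fell, 0 probes and 8 list genes passed, and 502 genes rose and 183 fell in all. Array median scaling moved the median of all genes to -0.27 and left 496 rises and 335 falls. The median of the members was then -0.80, or -0.53 relative to all genes. All-gene counts of rises and falls were 661 and 332 with no detection filter, 494 and 226 in row 1 alone, 1517 and 1788 with an intensity trend and 2180 and 2549 with array weights. With arrays left out in turn, 557 to 898 of all genes rose and 256 to 681 fell, both fewest without knockdown replicate 1. Chd4 passed in all 18 (log2 change -1.54 to -1.24, adjusted p 1.93e-05 to 0.027 by limma). Signs turned, never past the threshold, for Ermap (0.0033) and Xk (0.02) with quantile normalization and for Bcam in slide row 1 alone (0.59). With arrays left out in turn signs turned for Xk (-0.09 to 0.08), Bcam (-0.97 to 0.55) and Bsg (-0.28 to 0.04). The causes were not tested. Aqp1, at background, could not be measured under the filter used.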
